A study of Drosophila melanogaster with 9 samples.

Results

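Arc1 (FBgn0033926) and Arc2 (FBgn0033928) are neighbouring capsid genes of Drosophila melanogaster, and their RNA is described here in ovaries of 3 groups of flies, with 3 libraries in each group. They are 2 of the 17559 genes in the count files. They were chosen by these same counts: in earlier results both were higher in DPLG1 mutants while Arc1 was lower in DPLG4 mutants. Their levels in those contrasts are therefore given as a description, without a test. The groups are DPLG1 mutants, DPLG4 mutants and controls, whose titles read w1118. DPLG1 and DPLG4 are host genes that derive from PIF transposases. The tissue was the ovary in every group, total RNA was extracted, and the series' design text calls the 3 libraries of a group biological replicates. The kind of mutation, the number of lines behind a group, the age of the flies and the number of ovaries per library are not stated in the labels, nor is it stated whether the mutants share the w1118 background. Libraries are called by the number in their label: 22, 5 and 7 for DPLG1 mutants, 15, 3 and 7 for DPLG4 mutants, and 1, 2 and 3 for controls.

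Arc proteins descend from the Gag protein of Ty3/gypsy retrotransposons and still assemble into virus-like capsids. In the fly, Arc1 capsids are known to enclose Arc1 mRNA and to pass from motor neurons to muscle in extracellular vesicles, and Arc1 has been tied to behaviour under starvation and to lipid metabolism. Arc2 forms capsids as well, and less is known of its role. In the Ensembl annotation of build BDGP6.54, both are protein-coding genes with 1 exon on arm 2R. Arc1 lies at 14357927 to 14360297 on the minus strand, with an exon of 2371 bases. Arc2 lies at 14361924 to 14362825 on the plus strand, with an exon of 902 bases. No other annotated gene overlaps either of them, and 1626 bases separate them. The pseudogene CR10102 (14360433 to 14361780) stands between them. It had 2 counts over all 9 libraries, both in DPLG1 mutants.

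The libraries held 18078883 to 95751320 counts in genes. Control replicate 1 stood apart, since 72.0% of its total was assigned to no gene, mostly reads that did not align uniquely, against 11.5% to 13.8% in the other 8 libraries. The fold changes of Arc1 and Arc2 over controls are given with and without it, while control means, RPKM values and percentiles include it. DPLG1 (CG12253) had 0 to 1 counts per library in DPLG1 mutants, against 58.1 to 76.8 CPM (the count relative to the library size in units of 1e6, with library sizes scaled by TMM) in DPLG4 mutants and 54.0 to 69.4 CPM in controls. DPLG4 (CG7492) had 1.52 to 1.68 CPM in DPLG4 mutants, against 71.3 to 106 CPM in DPLG1 mutants and 114.8 to 167 CPM in controls. Ovary germline markers summed to 3442 to 3873 CPM in DPLG1 mutants, 3426 to 3860 CPM in DPLG4 mutants and 3544 to 4120 CPM in controls.

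Arc1 RNA was several times more abundant in DPLG1 mutant ovaries than in the other groups. It had 10870, 7994 and 4936 counts in DPLG1 mutant replicates 22, 5 and 7, which are 129, 153 and 109.7 CPM. In DPLG4 mutant replicates 15, 3 and 7 it had 1241, 1814 and 955 counts, or 20.5, 18.8 and 18.8 CPM. In control replicates 1, 2 and 3 it had 481, 2855 and 553 counts, or 20.5, 30.6 and 31.7 CPM. Every DPLG1 mutant library lay above every other library, and the lowest of them was 3.47 times the highest control. The group means were 131 ± 21.8 CPM in DPLG1 mutants, 19.3 ± 0.976 CPM in DPLG4 mutants and 27.6 ± 6.15 CPM in controls (SD, n = 3 each). The fitted log2 fold change of DPLG1 mutants over controls was 2.24 (SE 0.19), a 4.73-fold difference, and that of DPLG1 over DPLG4 mutants was 2.75 (SE 0.19), a 6.75-fold difference. In whole ovaries, more RNA per cell and more cells that carry the RNA cannot be told apart.

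Arc2 followed Arc1 in DPLG1 mutants, at a lower level and with a smaller fold. Its counts in DPLG1 mutant replicates 22, 5 and 7 were 2222, 1249 and 986, or 26.3, 23.9 and 21.9 CPM. DPLG4 mutant replicates 15, 3 and 7 had 560, 712 and 340 counts, or 9.24, 7.37 and 6.69 CPM. Control replicates 1, 2 and 3 had 162, 681 and 131 counts, or 6.91, 7.29 and 7.50 CPM. The DPLG1 mutant libraries again stood clear of all others, while the DPLG4 mutant libraries lay on either side of the controls. Means were 24.1 ± 2.19 CPM in DPLG1 mutants, 7.77 ± 1.32 CPM in DPLG4 mutants and 7.23 ± 0.301 CPM in controls (SD, n = 3 each). The log2 fold change was 1.73 (SE 0.15) for DPLG1 mutants over controls, or 3.33-fold, and 1.63 (SE 0.14) for DPLG1 over DPLG4 mutants, or 3.10-fold.

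**Figure D1:**
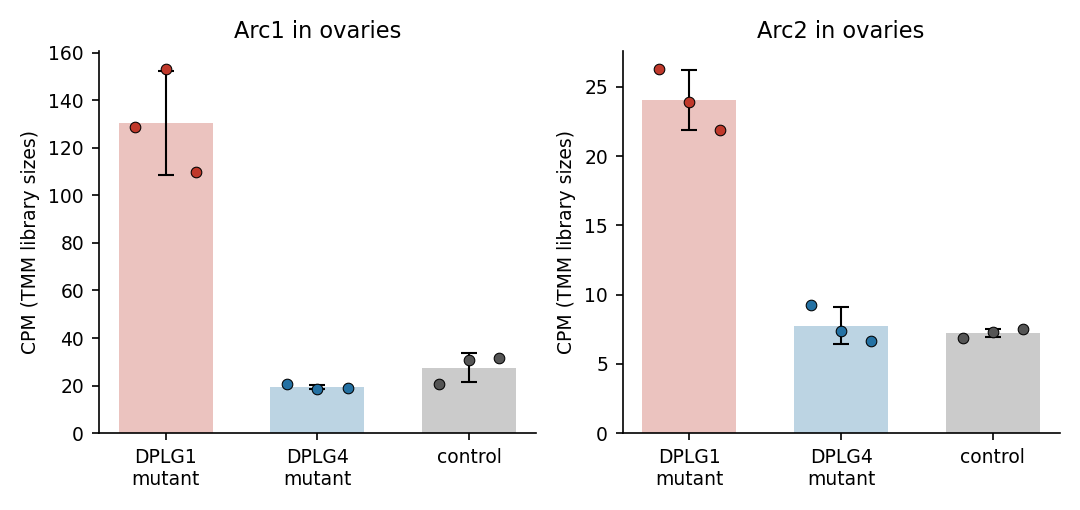
Arc1 (left) and Arc2 (right) in ovaries of DPLG1 mutants, DPLG4 mutants and controls, in CPM on a linear axis from 0. Points are the 3 libraries of a group, bars the mean and error bars the SD; the DPLG1 mutant libraries sit at 109.7 to 153 CPM for Arc1 and 21.9 to 26.3 CPM for Arc2, above all others.

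In DPLG1 mutants, 2 of the 2 genes were among the genes called against control (edgeR quasi-likelihood test over 8427 tested genes, Benjamini-Hochberg adjusted p under 0.05), where 0.107% of tested genes were called and 0.0593% were called higher. Nothing is read from that count, since this contrast chose the genes. Of all tested genes, 17% had an unadjusted p under 0.05. For 29.8% of tested genes the DPLG1 mutant and control libraries did not overlap, and for 15.8% every DPLG1 mutant library was the higher. By log2 fold change, Arc1 ranked 57th and Arc2 93rd from the top of the tested genes, and 3rd and 9th among the 6284 genes with a mean of at least 5 CPM over the 9 libraries. Against DPLG4 mutants, both genes were called as well, where 0.629% of tested genes were called and 0.32% called higher; for 15.5% these groups did not overlap, and for 9.04% DPLG1 mutants were the higher. The 15 alternatives to the processing gave log2 fold changes of DPLG1 mutants over controls of 2.09 to 2.39 for Arc1 and 1.66 to 1.88 for Arc2, a description of the contrast that chose them. Without control replicate 1 the values were 2.09 for Arc1 and 1.72 for Arc2.

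The lower Arc1 level of DPLG4 mutants was a small difference. Its log2 fold change over controls was -0.51 (SE 0.18), a level 0.701 times that of controls, and Arc1 was not among the genes called in that comparison, by edgeR or under any of the 15 alternatives. The highest DPLG4 mutant library, replicate 15, had 20.48 CPM, and the lowest control, replicate 1, had 20.51 CPM, a gap of less than 1 CPM between the groups. With upper quartile scaling they did overlap, at 17.4 to 22.4 CPM in DPLG4 mutants and 20.7 to 29.0 CPM in controls. Without control replicate 1 the log2 fold change was -0.67, and without control replicate 2 or 3 it was -0.42 or -0.41. Arc2 had a log2 fold change of 0.10 (SE 0.14) and overlapping libraries; without control replicate 1 the value was 0.09, and without DPLG4 mutant replicate 15 it was -0.04. Of the 2 genes, 0 were called here, where 0.427% of tested genes were called, 0.154% called lower and 10.8% had an unadjusted p under 0.05. For 16.3% of tested genes these groups did not overlap, and for 6.79% DPLG4 mutants were the lower. DPLG1 and DPLG4 mutants were compared with the same controls.

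Because the folds of the 2 genes differed, the share of Arc1 in the pair changed with the group. The count of Arc1 over that of Arc2, which no scaling of libraries can alter, was 4.89, 6.40 and 5.01 in DPLG1 mutant replicates 22, 5 and 7. It was 2.22, 2.55 and 2.81 in DPLG4 mutant replicates 15, 3 and 7, and 2.97, 4.19 and 4.22 in control replicates 1, 2 and 3. DPLG1 mutants were highest, DPLG4 mutants lowest, and the 3 ranges did not overlap. The nearest values were those of DPLG4 mutant replicate 7 (95% exact interval 2.48 to 3.19) and control replicate 1 (2.48 to 3.57), and these intervals, which cover counting error only, do overlap. Group means were 5.43 ± 0.840 in DPLG1 mutants, 2.52 ± 0.297 in DPLG4 mutants and 3.79 ± 0.715 in controls (SD, n = 3 each). Without replicate 1 the control mean was 4.21. The ratio is made of the values that chose the genes and was not tested.

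**Figure D2:**
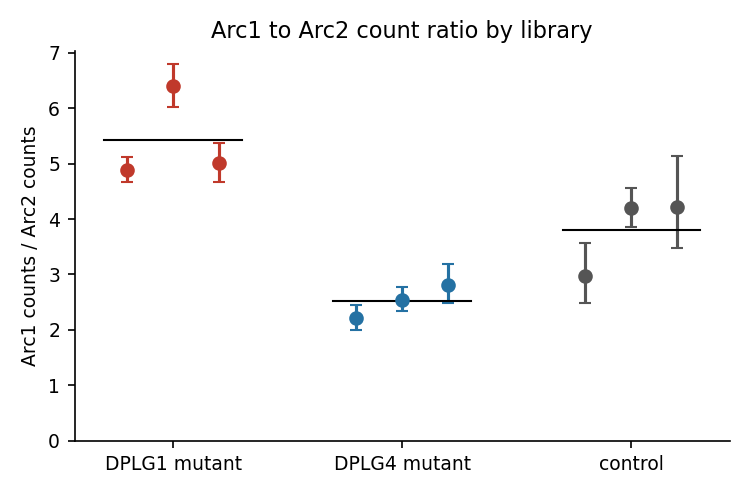
Arc1 counts divided by Arc2 counts in each library of DPLG1 mutants, DPLG4 mutants and controls, on a linear axis from 0. Points are libraries, error bars the 95% exact binomial interval of the 2 counts (counting error only) and horizontal lines the group means of 5.43, 2.52 and 3.79.

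Levels of different genes are compared per exon length, as CPM per kilobase (RPKM). On that scale Arc1 stood at 55.0 ± 9.18 RPKM in DPLG1 mutants, 8.16 ± 0.412 RPKM in DPLG4 mutants and 11.6 ± 2.59 RPKM in controls (SD, n = 3 each). Arc2 stood at 26.7 ± 2.43, 8.61 ± 1.46 and 8.02 ± 0.334 RPKM in the same order of groups. Arc1 was thus 1.86 to 2.43 times Arc2 per length in DPLG1 mutants, 0.843 to 1.07 times in DPLG4 mutants and 1.13 to 1.61 times in controls, so that the DPLG4 mutant libraries lay around an even level of the pair. Among 8248 tested genes with a known length, the level of Arc1 exceeded 76.7% of genes in DPLG1 mutants, 33.4% in DPLG4 mutants and 37.0% in controls. Arc2 exceeded 57.7%, 34.0% and 32.4%. In controls both thus lay in the lower part of the range of tested genes.

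Within DPLG1 mutants, replicate 5 was highest for Arc1 and replicate 22 for Arc2.

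Around the pair, no tested gene was called higher in either mutant. Within 100 kb of either side the annotation lists 31 other genes found in the files: 12 had no count in any library, 6 had too few counts to be tested, and 13 were tested. Of these 13, edgeR called 0 in DPLG1 mutants against control, with 2 at an unadjusted p under 0.05 and 1 by DESeq2. In DPLG4 mutants against control the numbers were 0, 1 and 0. Over all tested genes, 17% in DPLG1 and 10.8% in DPLG4 mutants had such an unadjusted p. DESeq2 called 3.41% and 2.71% of the genes it gave an adjusted p. The median log2 fold change of the 13 was -0.03 in DPLG1 mutants and -0.05 in DPLG4 mutants, against 0.01 and -0.01 over all tested genes, and 12 of the 13 lay within 0.35 of 0 in each comparison.

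The tested genes directly beside the pair, CG8617 and Tfb1, had similar values in all 3 groups. CG8617, which lies 0.646 kb from Arc1, had 40.2 to 48.1 CPM in DPLG1 mutants, 42.0 to 46.1 CPM in DPLG4 mutants and 41.9 to 48.9 CPM in controls (log2 fold change of DPLG1 mutants over controls -0.06, SE 0.11, edgeR adjusted p = 0.766). Tfb1, a subunit gene of the transcription and repair factor TFIIH that begins 0.223 kb beyond Arc2, had 158 to 174 CPM in DPLG1 mutants, 142 to 169 CPM in DPLG4 mutants and 159.8 to 170.5 CPM in controls (log2 fold change -0.02, SE 0.10, edgeR adjusted p = 0.932). All 3 groups overlapped for both flanking genes. CG8613 and Shrm, the next tested genes beyond CG8617, had log2 fold changes of -0.06 and 0.06 in DPLG1 mutants, and CG17385 and Sin1, the next beyond Tfb1, had 0.15 and -0.29 (edgeR adjusted p = 0.298 to 0.954 over these genes). Sin1 had 52.74 to 65.01 CPM in DPLG1 mutants and 65.06 to 77.97 CPM in controls, so these groups did not overlap, as for 29.8% of tested genes. Shrm varied within DPLG4 mutants, from 1.18 to 3.32 CPM.

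Ih, named after its values were seen, was the only tested neighbour with a log2 fold change beyond 0.35 of 0. It encodes a channel that opens on hyperpolarization and lies 57.8 kb from Arc1. Its DPLG1 mutant libraries (replicates 22, 5 and 7) had 3.29, 2.66 and 6.49 CPM, against 8.83, 8.57 and 9.88 CPM in DPLG4 mutant replicates 15, 3 and 7 and 18.03, 14.4 and 16.0 CPM in control replicates 1, 2 and 3. DPLG1 mutants were lowest and controls highest, with no overlap between groups. Of all tested genes, 29.8% had no overlap between DPLG1 mutants and controls, 16.3% between DPLG4 mutants and controls and 15.5% between the mutants. Its log2 fold change of DPLG1 mutants over controls was -1.97 (SE 0.30, edgeR adjusted p = 0.081), which missed the threshold. Ih was called under 3 of the 15 alternatives: DESeq2 (adjusted p = 1.03e-07), no filter on low counts (edgeR adjusted p = 0.0335) and without DPLG1 mutant replicate 7 (edgeR adjusted p = 0.0031). In the other 12 edgeR gave adjusted p = 0.0683 to 0.45. Without control replicate 1 the log2 fold change was -1.86. The other neighbour at an unadjusted p under 0.05 in DPLG1 mutants was beta4GalNAcTA. Its log2 fold change over controls was -0.31 (SE 0.11, edgeR adjusted p = 0.276).

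**Figure D3:**
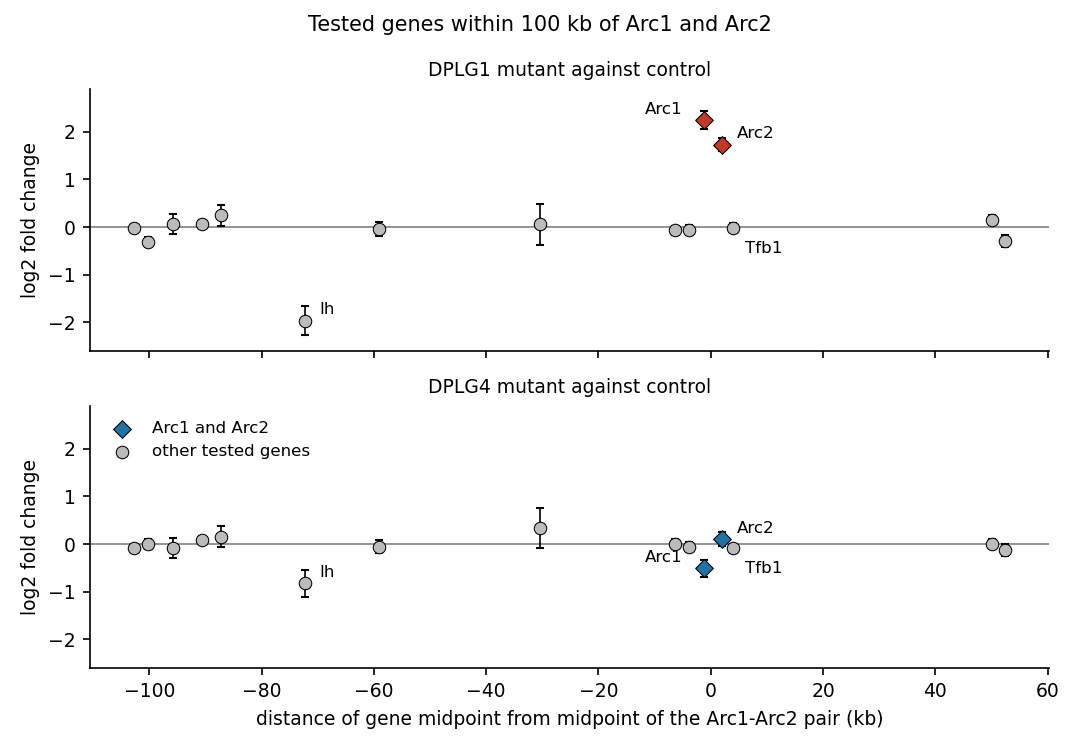
Log2 fold change of the tested genes within 100 kb of the Arc1 and Arc2 pair, in DPLG1 mutants against control (top) and DPLG4 mutants against control (bottom), by distance of each gene's midpoint from that of the pair in kb. Diamonds are Arc1 and Arc2, circles the other 13 tested genes, error bars the standard error; in DPLG1 mutants the pair lies at 2.24 and 1.73 while CG8617 and Tfb1 beside it lie at -0.06 and -0.02.

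Vesicle genes were taken up because Arc1 capsids leave cells in extracellular vesicles. A list of 26 genes of vesicle release and of ESCRT, the machinery that buds vesicles away from the cytoplasm, had 23 members that were found and tested. In DPLG1 mutants edgeR called 0 of them against control, with 6 at an unadjusted p under 0.05, while 1 was called by DESeq2. Over all genes, 17% had such an unadjusted p and DESeq2 called 3.41% of those it gave an adjusted p. Their median log2 fold change was -0.07, against 0.01 over all tested genes. In DPLG4 mutants edgeR called 0, with 3 at an unadjusted p under 0.05, DESeq2 called 1, and the median was -0.06, against 10.8%, 2.71% and -0.01 over all tested genes. Without control replicate 1 the medians of the list turned to 0.09 in DPLG1 mutants and 0.04 in DPLG4 mutants. Rab35, a GTPase of endosomal recycling, averaged 97.9 ± 10.9 CPM in DPLG1 mutants, 115.5 ± 32.9 CPM in DPLG4 mutants and 158 ± 11.1 CPM in controls (SD, n = 3 each), with a log2 fold change of -0.69 in DPLG1 mutants (SE 0.19, edgeR adjusted p = 0.269), and was the gene called by DESeq2 there. Rab27, a GTPase of vesicle secretion, averaged 12.5 ± 1.27 CPM in DPLG1 mutants, 16.6 ± 2.04 CPM in DPLG4 mutants and 9.66 ± 1.29 CPM in controls, with a log2 fold change of 0.78 in DPLG4 mutants (SE 0.15, edgeR adjusted p = 0.0901), and DESeq2 called it in DPLG4 mutants. Rab11, a marker of recycling endosomes, and the ESCRT-I subunit gene Vps37B had log2 fold changes of -0.28 and -0.29 in DPLG1 mutants, and edgeR called neither.

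Lipid storage and starvation genes were listed because fly Arc1 has been tied to both. Of 20 written, 18 were found and 15 tested. In DPLG1 mutants edgeR called 0 of the 15, with 3 at an unadjusted p under 0.05, DESeq2 called 0, 10 had a negative log2 fold change and the median was -0.23. Over all tested genes 17% had such a p, DESeq2 called 3.41% of those it gave an adjusted p, and the median was 0.01. In DPLG4 mutants edgeR called 0, with 1 at an unadjusted p under 0.05, DESeq2 called 0, 10 were negative and the median was -0.13. There, 10.8% of all tested genes had such a p, DESeq2 called 2.71% of those it gave an adjusted p, and the median over all was -0.01. Lsd-2, a perilipin that coats lipid droplets, averaged 580 ± 55.2 CPM in DPLG1 mutants, 596 ± 126 CPM in DPLG4 mutants and 783 ± 31.9 CPM in controls (SD, n = 3 each; log2 fold change of DPLG1 mutants -0.43, SE 0.15, edgeR adjusted p = 0.276). The lipase genes Hsl and bmm had log2 fold changes of -0.55 and -0.19 in DPLG1 mutants, and mdy, an enzyme gene of triglyceride synthesis, had 0.29. None of these 4 was called by edgeR.

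Mammalian Arc is best known as a gene induced by neuronal activity. Of 8 fly genes listed for activity-induced transcription, 5 were tested, and Hr38 and sr, which respond to neuronal activity in the fly, had 67 and 34 counts over the 9 libraries, too few to be tested. In DPLG1 mutants edgeR called 0 of 5, with 0 at an unadjusted p under 0.05 and 0 by DESeq2, and the median log2 fold change was -0.10. The last 3 values were 17%, 3.41% and 0.01 over all tested genes. In DPLG4 mutants edgeR called 0, with 1 at an unadjusted p under 0.05 and 1 by DESeq2, and the median was -0.13, against 10.8%, 2.71% and -0.01 over all tested genes. That gene was CrebA, a transcription factor of the secretory pathway, at 4.14 ± 1.16 CPM in DPLG1 mutants, 2.195 ± 0.418 CPM in DPLG4 mutants and 5.13 ± 0.176 CPM in controls (log2 fold change of DPLG4 mutants -1.23, SE 0.24, edgeR adjusted p = 0.107). Jra, the fly Jun, had log2 fold changes of -0.10 in DPLG1 mutants and -0.13 in DPLG4 mutants. CrebB had -0.39 and -0.22, and Atf3 had 0.11 and 0.44.

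Among other fly genes derived from retroelements, Gagr, which comes from a Gag protein as the Arc genes do, had 8 counts over all 9 libraries and was not tested. Iris, derived from an envelope gene, averaged 1.58 ± 0.332 CPM in DPLG1 mutants, 3.13 ± 2.17 CPM in DPLG4 mutants and 1.495 ± 0.237 CPM in controls (SD, n = 3 each; log2 fold change of DPLG1 mutants 0.08, SE 0.45, edgeR adjusted p = 0.933). DESeq2 called 0 of this list in both mutants, and the numbers at an unadjusted p under 0.05 were 0 in DPLG1 mutants and 1 in DPLG4 mutants, of 1 gene tested. Among all tested genes, 17% and 10.8% had such a p, and DESeq2 called 3.41% and 2.71% of those it gave an adjusted p.

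**Figure D4:**
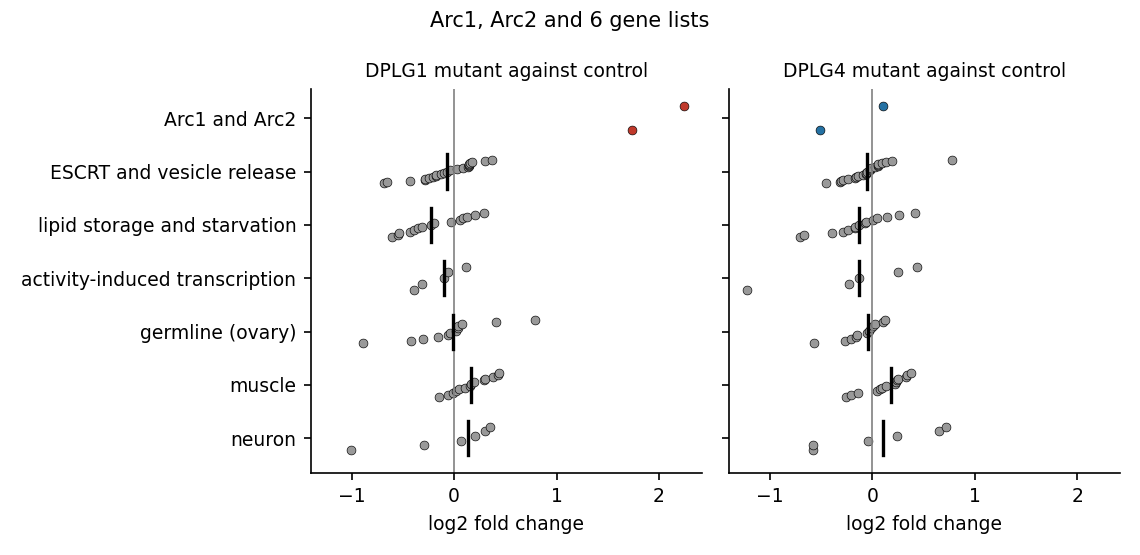
Log2 fold change of Arc1 and Arc2 and of the tested genes of 6 lists, in DPLG1 mutants against control (left) and DPLG4 mutants against control (right). Each point is a gene and each black bar a list's median; in DPLG1 mutants Arc1 and Arc2 lie at 2.24 and 1.73, while the medians of the 6 lists drawn, of 13 in all, run from -0.23 to 0.16; the gut, follicle cell and 5 further lists are not drawn.

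Arc1 is best known from neurons, and neuron markers were low in every group. The 15 markers found summed to 2.82 to 3.86 CPM in DPLG1 mutants, 3.88 to 4.72 CPM in DPLG4 mutants and 3.08 to 3.72 CPM in controls. VGlut and Gad1, which define glutamatergic and GABAergic neurons, had 0 counts in all 9 libraries, and ChAT, which defines cholinergic ones, had 1. Of the 6 tested neuron markers edgeR called 0 in both mutants against control, with 1 at an unadjusted p under 0.05 in each and 0 by DESeq2. The shares over all genes were 17% in DPLG1 and 10.8% in DPLG4 mutants at such a p, and 3.41% and 2.71% by DESeq2. The 6 enteroendocrine markers summed to 0.0575 to 0.133 CPM in DPLG1 mutants, 0.0197 to 0.207 CPM in DPLG4 mutants and 0.0426 to 0.114 CPM in controls, and none was tested.

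Gut markers, mostly digestive enzymes, varied between libraries within the mutants. The sum of the 20 markers was 0.805 CPM in DPLG1 mutant replicate 22, 1.40 CPM in replicate 5 and 59.4 CPM in replicate 7. It came to 13.7, 43.7 and 0.807 CPM in DPLG4 mutant replicates 15, 3 and 7, and was 0.744 to 1.19 CPM in controls. They were high in DPLG1 mutant replicate 7 and in DPLG4 mutant replicates 15 and 3. Of the 10 gut markers tested, edgeR called 0 in both mutants against control, with 4 in DPLG1 and 6 in DPLG4 mutants at an unadjusted p under 0.05 and 1 in each by DESeq2. Such an unadjusted p was found for 17% and 10.8% of all tested genes. DESeq2 called 3.41% and 2.71% of the genes it gave an adjusted p. No median fold is given, since control levels were close to 0. Without DPLG1 mutant replicate 7 the log2 fold changes of DPLG1 mutants over controls were 2.35 for Arc1 and 1.79 for Arc2.

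The germline list held 14 genes, of which vas and nos were not matched by symbol and were left out. Among the ovary's own cells, 12 germline markers had a median log2 fold change of -0.01 in DPLG1 mutants and -0.04 in DPLG4 mutants, and edgeR called 0 in both, with 3 and 0 at an unadjusted p under 0.05 and 3 and 0 by DESeq2. Over all tested genes 17% and 10.8% had such an unadjusted p, and the medians were 0.01 and -0.01. DESeq2 called 3.41% and 2.71% of the genes it gave an adjusted p. Of the 12, 6 had a positive and 6 a negative log2 fold change in DPLG1 mutants, and DESeq2 called bam, piwi and stau there. bam, a switch gene of germline differentiation, averaged 61.95 ± 3.55 CPM in DPLG1 mutants, 35.5 ± 4.50 CPM in DPLG4 mutants and 35.8 ± 1.39 CPM in controls (SD, n = 3 each). Its log2 fold change of DPLG1 mutants over controls was 0.79 (SE 0.11, edgeR adjusted p = 0.0588). Over the fit to all libraries and the fits that leave out 1 each, stau had -1.01 to -0.74 in that comparison, otu -0.35 to -0.22 and piwi 0.36 to 0.47. Follicle cell markers, 13 in number, summed to 942 to 1302 CPM in DPLG1 mutants, 1171 to 1816 CPM in DPLG4 mutants and 589 to 1134 CPM in controls. Of the 11 tested, edgeR called 0 in both mutants against control, with 2 in DPLG1 and 4 in DPLG4 mutants at an unadjusted p under 0.05 and 1 in each by DESeq2, beside the shares over all genes given above. Their median log2 fold change was -0.15 in DPLG1 and 0.75 in DPLG4 mutants, against 0.01 and -0.01 over all tested genes. Of the 11, 4 had a positive and 7 a negative log2 fold change in DPLG1 mutants, while 11 were positive and 0 negative in DPLG4 mutants. Leaving out control replicate 1 turned the DPLG1 median to 0.14, leaving out DPLG1 mutant replicate 5 turned it to 0.16, and the DPLG4 median was 0.37 without DPLG4 mutant replicate 15. The eggshell genes Cp36 and Cp38 had log2 fold changes of 1.63 and 1.28 in DPLG1 mutants, against the sign of that median, and edgeR called neither. The part of these cells in the Arc1 and Arc2 levels was not tested.

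The genes whose levels over the 9 libraries were most like those of Arc1 and Arc2 were found by the root mean square difference of log2 CPM, each gene taken relative to its own mean. The genes nearest to Arc1 were Arc2 at 0.49, then CR43275 at 0.51, Cyp6d2 at 0.53, stol at 0.62 and Drep4 at 0.70. Those nearest to Arc2 were Drep4 at 0.26, Cyp6d2, Fmo-1, lncRNA:CR45472 and CG17681, the last 4 at 0.37, while the median of all tested genes was 0.84. Arc1 itself came 17th of 8426 in likeness to Arc2, since its folds were larger. These values describe the pattern that chose the pair, and they carry no test.

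Drep4, of the family of apoptotic DNA fragmentation factors, averaged 27.3 ± 1.62 CPM in DPLG1 mutants, 12.9 ± 1.69 CPM in DPLG4 mutants and 10.8 ± 1.82 CPM in controls (SD, n = 3 each). It overlaps CG44085 and asRNA:CR44083. Cyp6d2, a cytochrome P450 gene that overlaps nsr, averaged 1.66 ± 0.575 CPM in DPLG1 mutants, 0.421 ± 0.0962 CPM in DPLG4 mutants and 0.516 ± 0.169 CPM in controls. Fmo-1, a flavin monooxygenase gene, averaged 0.988 ± 0.0768, 0.530 ± 0.0674 and 0.424 ± 0.0800 CPM in the same order of groups. All 3 genes were higher in every DPLG1 mutant library than in any other. They were picked for likeness to Arc1 or Arc2, which have this pattern, so nothing is read from it. Against controls alone, 15.8% of tested genes were higher in every DPLG1 mutant library.

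CR43275 had 10 to 35 counts per library in DPLG1 mutants, 0 to 1 in DPLG4 mutants and 0 in each control, so no fold is given. stol averaged 0.875 ± 0.325 CPM in DPLG1 mutants, 0.130 ± 0.0794 CPM in DPLG4 mutants and 0.0881 ± 0.0395 CPM in controls, and it overlaps 8 annotated genes. The noncoding lncRNA:CR45472 averaged 12.96 ± 2.45 CPM in DPLG1 mutants, 7.06 ± 1.32 CPM in DPLG4 mutants and 5.80 ± 1.19 CPM in controls. CG17681 averaged 5.62 ± 0.366, 2.65 ± 0.467 and 3.03 ± 0.460 CPM in the same order of groups. Of the 7 like genes other than the pair, 4 lie on 2R and 3 on 2L, where chromosome 2 holds 37.1% of tested genes. The 4 on 2R lie 1.01 to 9.60 Mb from the pair. All 7 were picked for the pattern that chose the pair, so nothing is read from their positions.

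**Figure D5:**
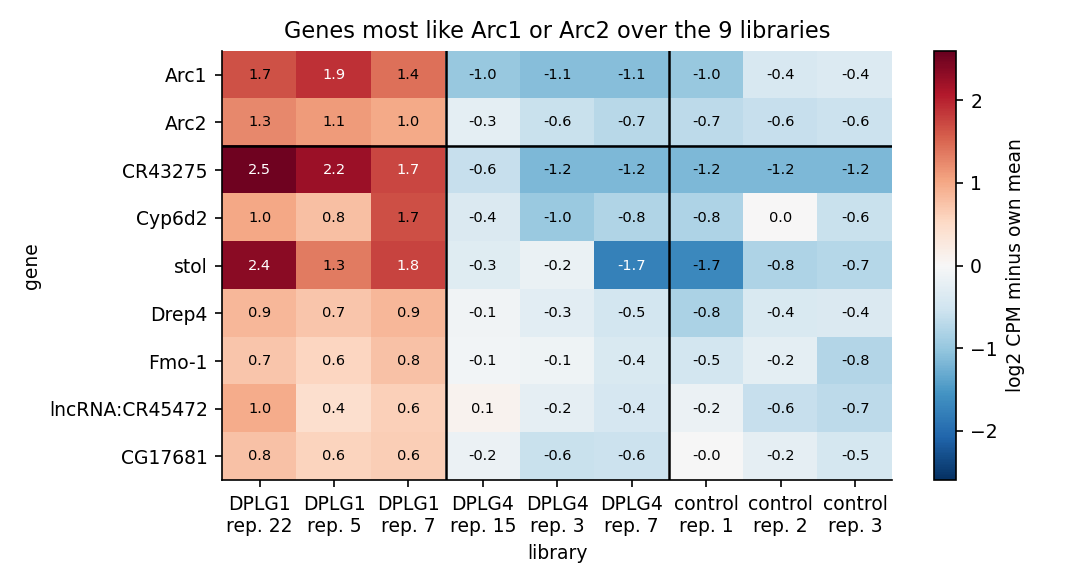
Log2 CPM of Arc1, Arc2 and the 7 other genes most like either of them, each relative to its own mean over the 9 libraries, with libraries in columns by group (DPLG1 mutants, DPLG4 mutants, controls). Colour and number give the same value, red above and blue below the gene's mean; Arc1 and Arc2 are above their means in the 3 DPLG1 mutant libraries and below them in the other 6.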

How the data were processed

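The authors deposited raw counts, with 1 file of genes for each library. The submitters' processing notes list STAR 2.5, HTSeq, DESeq2 and FastQC as tools and BDGP6 and GRCh37 as builds. Not given in the sources used here are the annotation release, the strand setting of the counting and the role of the human build. Of 17559 identifiers, 17253 had a symbol and position in Ensembl release 115 (build BDGP6.54), whose match to the authors' annotation was not checked beyond the identifiers. Summary lines of the files (11.5% to 13.8% of the total in 8 libraries, 72.0% in control replicate 1) stayed out of library sizes and tests.

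In R 4.3.3, edgeR 4.0.16 (with limma 3.58.1) was fitted to all 9 libraries with group as the only term, TMM scaling and robust quasi-likelihood dispersion. Of 13404 genes with any count, filterByExpr left 8427. Calls needed a Benjamini-Hochberg adjusted p under 0.05 over all of them. DESeq2 1.42.0 was an alternative. CPM values use TMM library sizes, and RPKM values divide CPM by the summed exon length. The script was tested on simulated data. Log CPM correlated at 0.976 to 0.994 within groups, and counts of every replicate pair differed beyond sampling noise.

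The members and the 13 gene lists were chosen with earlier results of these data known. Listed genes not matched by symbol were left out, among them vas, nos, br, PPO1, para, VAChT and wupA. Named were the 2 genes, the targeted genes, the 3 nearest tested genes on each side, called neighbours within 100 kb, up to 4 members of a list with the smallest p and any called, and the 5 genes most like each member (log2 CPM with a prior count of 2). Ih, beta4GalNAcTA and CR10102 were picked after seeing their values. Reads shared between Arc1 and Arc2, and their protein relatives, were not analysed here; whether any reads fit both genes is therefore not known. Alternatives were 2 other scalings, 2 other filters, DESeq2, a fit to the 6 libraries compared and leaving out each library.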

Additional observations from a re-analysis of the deposited data

How the results depend on the processing

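Arc1 and Arc2 were chosen by the contrasts described, so their values under the alternatives describe them and support nothing. The Arc2 log2 fold change of DPLG1 mutants over controls was 1.88 with upper quartile scaling. The count of genes called depended on the test. DESeq2 called 275 in DPLG1 mutants against control (129 higher, 146 lower), 228 in DPLG4 mutants against control (156 higher, 72 lower) and 230 between the mutants (116 higher, 114 lower). With the 6 libraries compared, 12 were called in DPLG4 mutants against control (7 higher, 5 lower) and 29 between the mutants. Leaving out each library gave 6 to 16, 11 to 36 and 24 to 51 calls in these comparisons.

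Among neighbours, 1 gene (Ih) was called in DPLG1 mutants against control with no filter and with DESeq2, and 1 between the mutants with DESeq2; leaving out a library gave 0 to 1. In lists where edgeR called 0, DESeq2 called 1 in each case named here: Cp36, Jon65Aiii and srp in both mutants against control, and CrebA, Appl and crq between the mutants. Upper quartile scaling also called 1 of the vesicle list in DPLG4 mutants (Rab27). Of the germline list DESeq2 called 3 in DPLG1 mutants against control (bam, piwi, stau), and 2 between the mutants, where edgeR called 1 (bam), 0 with upper quartile scaling and 0 with the 6 libraries; leaving out a library gave 0 to 1. DESeq2 also called 2 follicle genes between the mutants (Vm26Ab, Yp2). With a prior count of 0.5, 3 of the 5 genes most like Arc1 were shared. The cause of these differences was not tested. No paired analysis was possible because the replicate numbers in the titles are shared by fewer than 2 libraries of any pair of groups. Intervals and floors cover counting error only.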

Other observations

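Markers listed for muscle, fat body, hemocytes and the female tract were as follows. The lists are named for these cell types, and whether the ovary's own cells express the listed genes was not tested. The 14 muscle markers found summed to 653 to 708 CPM in DPLG1 mutants, 649 to 661 CPM in DPLG4 mutants and 687 to 745 CPM in controls. The 7 fat body markers summed to 60.3 to 82.3 CPM in DPLG1 mutants, 72.5 to 88.2 CPM in DPLG4 mutants and 71.2 to 101 CPM in controls. The 12 hemocyte markers summed to 447 to 496 CPM in DPLG1 mutants, 392.03 to 469 CPM in DPLG4 mutants and 406 to 432 CPM in controls. The 4 markers of the female tract summed to 2.62 to 6.71 CPM in DPLG1 mutants, 2.72 to 8.53 CPM in DPLG4 mutants and 1.14 to 3.20 CPM in controls. In each of these 4 lists edgeR called 0 in both mutants against control. At an unadjusted p under 0.05 in DPLG1 and DPLG4 mutants were 1 and 1 of 14 tested muscle markers and 1 and 0 of 4 of the fat body. For hemocytes it was 3 and 4 of 8, and for the female tract 0 and 1 of 2. Over all tested genes the shares were 17% and 10.8%, and the median log2 fold changes 0.01 and -0.01. DESeq2 called srp, a GATA factor of hemocytes, in both mutants and no other gene of these lists. It called 3.41% and 2.71% of all genes it gave an adjusted p. The median log2 fold changes of DPLG1 and DPLG4 mutants over controls were 0.16 and 0.18 for 14 tested muscle markers, -0.56 and -0.26 for 4 of the fat body, -0.16 and -0.08 for 8 of hemocytes and 0.87 and 1.07 for 2 of the female tract. Without DPLG1 mutant replicate 22 the DPLG1 medians were -0.05 for muscle and 0.35 for the female tract, and without DPLG4 mutant replicate 15 the DPLG4 median of the female tract was 0.38. Without control replicate 1 the hemocyte median of DPLG1 mutants was 0.01, and without control replicate 3 it was 0.14. srp averaged 7.49 ± 0.602 CPM in DPLG1 mutants, 7.58 ± 0.817 CPM in DPLG4 mutants and 4.81 ± 1.03 CPM in controls (SD, n = 3 each).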
